A study of Mus musculus with 12 samples.

Results

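The genes described here make, sense and export sterols and fatty acids. They were chosen by name, as 31 rows of a table of 22294 mouse genes, and comprise 7 enzymes of the mevalonate steps, 11 enzymes from squalene to cholesterol, 4 genes of sterol sensing and transport, 5 genes of fatty acid synthesis and 4 genes of sterol efflux and the liver X receptors (LXR). Their messenger RNA was read by sequencing of cells carrying F4/80, a surface protein of mouse macrophages, which were drawn from endometrium with magnetic beads. There were 12 libraries, 3 in each of 4 groups. Primed MSC and control MSC libraries came from mice with the intrauterine adhesion (IUA) model that were given mesenchymal stromal cells of human umbilical cord, primed beforehand with inflammatory cytokines, which are not named in the sources used here, or left unprimed. IUA libraries came from mice with the model alone, and Sham libraries from mice with a sham operation. The IUA libraries alone carry the name Matrigel, a basement membrane gel, so an effect of that gel cannot be told apart from the model if only those mice received it. Strain, age, times and the injury that makes the model are not given in the sources used here, and neither is whether each library is 1 mouse. The p-values therefore measure the spread between these libraries, which may be technical.

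Cholesterol is built from acetyl-CoA through mevalonate, squalene and lanosterol. When sterols in the endoplasmic reticulum are low, SREBP transcription factors are carried to the Golgi by SCAP, cut free, and switch on these enzymes and the fatty acid enzymes, whereas INSIG proteins hold them back when sterols are plentiful. Macrophages that take up dead cells load cholesterol, and oxidised sterols then activate LXR, which switches on the exporters ABCA1 and ABCG1 as well as the gene of SREBP that drives fatty acid synthesis.

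Levels are in FPKM as the authors deposited them, a unit that counts fragments relative to transcript length and to the size of the library. The depth is unknown, and the FPKM of a library summed to 505460 to 563751. Levels over the 12 libraries ran from a mean of 79.3 FPKM for Abca1, 44.8 for Abcg1 and 42.4 for Nr1h2, through 32.6 for Acat2 and 32.4 for Ebp, which overlapped one another, down to 1.13 for Scd1 and 0.738 for Fasn. All members but Fasn reached 1 FPKM in 3 or more libraries and were tested, 30 among 11604 genes. Changes are on the log2(FPKM + 1) scale, which understates them for low genes, and a gene is said to rise, fall or change where its adjusted p in limma was under 0.05. By the F test over the 4 groups 22 of the 30 changed, against 67.0 percent of all tested genes.

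The macrophage label was checked on Adgre1, the gene of F4/80, which stood at 1175 ± 199.8 FPKM in primed MSC, 939.9 ± 101 in control MSC, 434 ± 38.1 in IUA and 223 ± 29.0 in Sham libraries (SD, n = 3 each). The 10 macrophage markers summed to 29638 to 31236 FPKM in primed MSC, 30000 to 32943 in control MSC, 28012 to 30403 in IUA and 10135 to 12717 in Sham libraries. Lyz2 made up most of these sums, with means of 18695 FPKM in primed MSC, 20630 in control MSC, 18225 in IUA and 6831 in Sham libraries. The 14 uterine epithelium markers summed to 1799 to 3571 FPKM in primed MSC, 2124 to 4894 in control MSC, 1834 to 5674 in IUA and 8063 to 14070 in Sham libraries, so every Sham library held more epithelial RNA than any other. The 6 adipocyte genes summed to 2.83 to 3.40 FPKM in primed MSC, 2.82 to 3.00 in control MSC, 2.37 to 4.44 in IUA and 3.29 to 6.35 in Sham libraries, with Lep at 0 in every library, Adipoq at 0.43 FPKM at most and the lipase gene Lipe at 1.63 to 5.92 FPKM. Genes of steroid-making ovary cells summed to 0.55 to 3.87 FPKM in primed MSC, 1.27 to 8.74 in control MSC, 3.63 to 10.4 in IUA and 1.38 to 2.89 in Sham libraries, with Cyp19a1 at 0 in every library and Star, which carries cholesterol into mitochondria, at 0.55 to 4.28 FPKM. In such bulk samples fewer cells of a type and less RNA per cell cannot be told apart. Library factors from the median ratio over genes were 1.23 to 1.27 in Sham libraries and 0.894 to 1.01 in the others, and dividing by them moved the median log2 change of all genes in IUA against Sham libraries to 0.00, against -0.35 as deposited. For each member called in IUA against Sham libraries the change after median-ratio scaling is given as well.

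**Figure D1:**
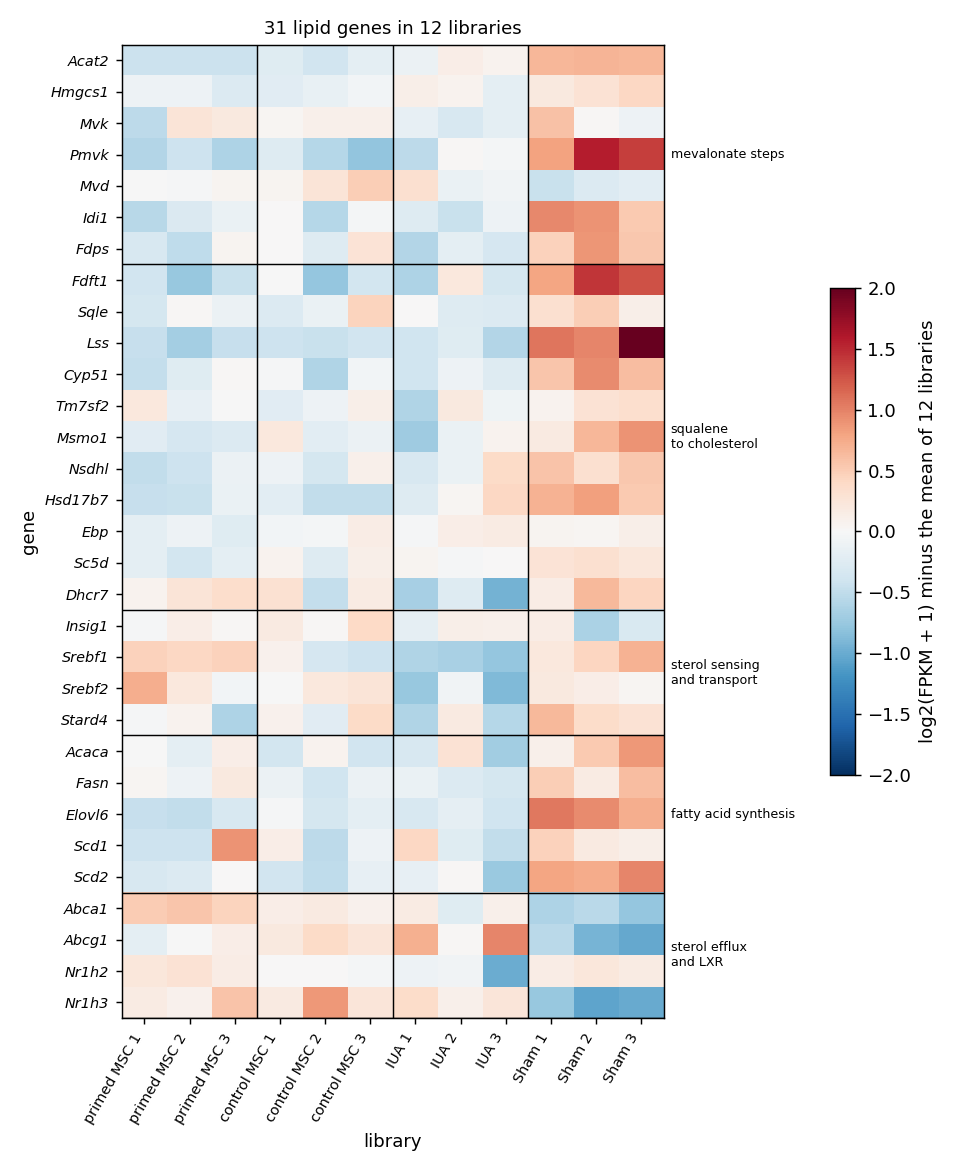
Level of each of the 31 genes in each of the 12 libraries, as log2(FPKM + 1) minus the gene's mean over all libraries (red above, blue below), with genes by role from top to bottom and groups from primed MSC on the left to Sham on the right. The Sham columns are red for most enzymes and blue for Abca1, Abcg1 and Nr1h3, and the Srebf1 row is red in primed MSC and Sham and blue in IUA libraries.

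In IUA against Sham libraries most of the synthesis genes were lower and 3 of the 4 efflux and LXR genes were higher. Of the 30 tested genes 20 fell and 3 rose, where 45.0 percent of all tested genes fell and 11.1 percent rose. Their median log2 change was -0.63, against -0.35 over all genes. With median-ratio scaling 10 fell and 6 rose, and the medians were -0.29 for these genes and 0.00 for all genes. In that fit 21.8 percent of all tested genes fell and 23.2 percent rose. With the mean of the epithelium markers as a covariate 8 fell and 1 rose, where 12.2 percent of all tested genes fell and 4.24 percent rose. The epithelial signal and the group cannot be told apart, because its sum was higher in every Sham library than in every IUA library. Markers of other cells moved in this comparison too. Of the 10 macrophage markers 9 rose and none fell, with a median log2 change of 1.07. All 6 tested neutrophil markers of 7 rose, with sums over the list of 313 to 399 FPKM in IUA and 25.9 to 78.5 in Sham libraries. Most of these sums was Ltf, which averaged 265 FPKM in IUA and 48.8 in Sham libraries. Ltf is on the epithelium list as well, and thus also part of the epithelium sums and covariate. Of the 12 tested epithelium markers 11 fell, and Ltf was the 1 that rose. Of the endothelial markers 6 of 7 fell, with sums of 116 to 147 FPKM in IUA and 213 to 381 in Sham libraries. Of the smooth muscle markers 4 of 6 fell, with sums of 230.2 to 302 FPKM in IUA and 341 to 1129 in Sham libraries, and 3 of 8 tested stromal markers fell, with overlapping sums of 284 to 902 FPKM in IUA and 461 to 907 in Sham libraries. Lipe, the 1 tested adipocyte gene, fell (-0.79 ± 0.18), and Star, 1 of 2 tested ovary genes, rose (0.98 ± 0.34). The part of these cells in the members' changes was not tested. The calls that held under every alternative in which the gene was tested were the rise of Abcg1 and the falls of Lss, Pmvk, Elovl6, Scd2, Srebf1 and Idi1. Leaving out 1 library at a time ended the call of Acaca, Hmgcs1, Hsd17b7, Nr1h2, Nsdhl, Sqle, Srebf2 or Stard4 in at least 1 of these fits, and 15 of the 23 calls held in all of them.

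**Figure D2:**
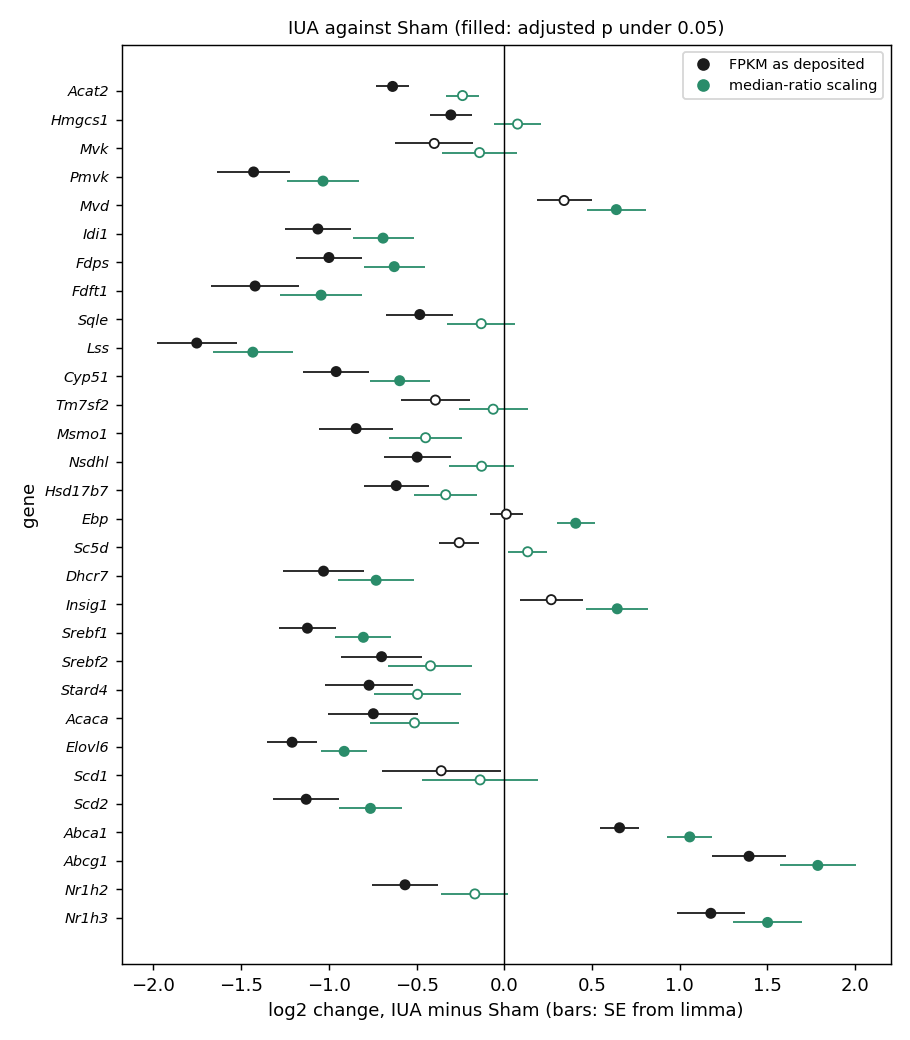
Log2 change of the 30 tested genes, IUA minus Sham, with the FPKM as deposited (black) and after median-ratio scaling (green). Bars are the SE from limma and filled circles have an adjusted p under 0.05. The scaling shifts every gene to the right, after which 10 genes fall and Mvd, Ebp and Insig1 are called higher.

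Of the 7 mevalonate genes, 5 fell in IUA against Sham libraries and none rose, while with median-ratio scaling 3 fell and Mvd rose. Over all tested genes 45.0 percent fell and 11.1 percent rose as deposited, and 21.8 percent fell and 23.2 percent rose with that scaling. Pmvk, phosphomevalonate kinase, stood at 12.5, 14.1 and 12.1 FPKM in primed MSC, 15.9, 12.6 and 10.6 in control MSC, 13.04, 19.58 and 18.65 in IUA and 34.4, 58.7 and 51.5 in Sham libraries. Every Sham library lay above all 9 others. Its log2 change in IUA against Sham was -1.43 ± 0.21 (SE, adjusted p = 2.59e-04) and -1.03 after median-ratio scaling. Idi1, the isomerase that readies the isoprene unit for chain building, stood at 4.59, 5.74 and 6.49 FPKM in primed MSC, 7.24, 4.53 and 6.94 in control MSC, 5.83, 5.02 and 6.66 in IUA and 15.0, 14.2 and 10.8 in Sham libraries. It too was highest in the 3 Sham libraries, and its IUA against Sham change was -1.06 ± 0.19 (adjusted p = 7.05e-04) and -0.69 after median-ratio scaling.

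Fdps, which makes farnesyl diphosphate, the branch point to sterols and prenylated proteins, stood at 6.61, 5.66 and 8.86 FPKM in primed MSC, 8.52, 6.98 and 10.5 in control MSC, 5.34, 7.33 and 6.51 in IUA and 12.1, 16.5 and 12.9 in Sham libraries. Its 3 Sham values exceeded all others, with an IUA against Sham change of -1.0 ± 0.19 (adjusted p = 0.00101), or -0.63 with median-ratio scaling. In the annotation 26.7 percent of the exon bases of Fdps are shared with Gm43738 on the same strand, so its reads could have been split. Acat2, the cytosolic thiolase that joins acetyl-CoA units at the entry of the pathway, stood at 22.7, 22.7 and 22.9 FPKM in primed MSC, 26.2, 23.7 and 26.9 in control MSC, 28.7, 34.3 and 32.9 in IUA and 49.85, 50.55 and 50.03 in Sham libraries. The 4 groups did not overlap and ran from primed MSC at the bottom to Sham at the top. Its fall in IUA against Sham was -0.64 ± 0.09 (adjusted p = 2.83e-04), and with median-ratio scaling -0.24 (adjusted p = 0.055).

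Hmgcs1, HMG-CoA synthase, averaged 12.6 ± 1.52 FPKM in IUA and 15.8 ± 1.23 in Sham libraries (SD, n = 3 each). Its fall of -0.30 ± 0.12 (adjusted p = 0.0447) turned to 0.08 with median-ratio scaling. Mvk, mevalonate kinase, changed by -0.40 ± 0.22 (adjusted p = 0.141) and was not called. Mvd, the decarboxylase of the same steps, had the opposite sign and measured 4.82, 3.26 and 3.44 FPKM in IUA and 2.43, 2.89 and 3.06 in Sham libraries. All 3 IUA values were above all Sham values, at 0.34 ± 0.16 (adjusted p = 0.0824) as deposited and 0.64 (adjusted p = 0.0086) with median-ratio scaling.

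Among the 11 genes from squalene to cholesterol 8 fell in IUA against Sham libraries and none rose, and with median-ratio scaling 4 fell and Ebp rose. The shares of all tested genes were 45.0 percent lower and 11.1 percent higher as deposited, and 21.8 and 23.2 percent with that scaling. Fdft1, squalene synthase, stood at 5.46, 4.01 and 5.19 FPKM in primed MSC, 7.44, 3.93 and 5.56 in control MSC, 4.49, 8.74 and 5.63 in IUA and 13.6, 21.8 and 19.5 in Sham libraries. The Sham values did not overlap the rest, and the IUA against Sham change was -1.42 ± 0.25 (adjusted p = 6.85e-04), or -1.04 with median-ratio scaling. Of its exon bases 18.3 percent lie opposite exons of Ctsb, the gene of a lysosomal protease, and without strand the reads of the pair cannot be told apart there. Lss, lanosterol synthase, which closes the sterol rings, had the lowest IUA against Sham log2 change of the 30 genes. It stood at 1.14, 0.83 and 1.14 FPKM in primed MSC, 1.20, 1.16 and 1.24 in control MSC, 1.22, 1.49 and 0.96 in IUA and 5.17, 4.77 and 10.7 in Sham libraries. The 9 libraries of the IUA model lay within 0.83 to 1.49 FPKM and the Sham libraries well above them, at -1.75 ± 0.23 (adjusted p = 1.44e-04), and -1.43 with median-ratio scaling.

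Dhcr7, the reductase of the last step to cholesterol, stood at 2.92, 3.47 and 3.76 FPKM in primed MSC, 3.59, 1.67 and 3.17 in control MSC, 1.35, 2.14 and 0.93 in IUA and 3.14, 4.84 and 4.02 in Sham libraries. The IUA libraries lay below all primed MSC and Sham libraries and overlapped the control MSC ones. Its IUA against Sham change was -1.03 ± 0.23 (adjusted p = 0.00281), or -0.73 with median-ratio scaling. Cyp51, the lanosterol demethylase, changed by -0.96 ± 0.19 (adjusted p = 0.00134), or -0.60 with median-ratio scaling. Msmo1, the methylsterol oxidase, changed by -0.84 ± 0.21 (adjusted p = 0.00527). It was not called with median-ratio scaling (-0.45, adjusted p = 0.098) or with the epithelium covariate (-0.24, adjusted p = 0.47). Smaller falls were measured for Hsd17b7 (-0.62 ± 0.18) and Nsdhl (-0.50 ± 0.19), which act in the removal of methyl groups from the ring, and for Sqle, squalene epoxidase (-0.48 ± 0.19), and with median-ratio scaling Hsd17b7 (-0.33), Nsdhl (-0.13) and Sqle (-0.13) were not called either. Ebp, the sterol isomerase, averaged 34.4 ± 2.39 FPKM in IUA and 34.1 ± 0.915 in Sham libraries (SD, n = 3 each), a change of 0.01 ± 0.10 as deposited and 0.41 (adjusted p = 0.009) with median-ratio scaling. The sterol desaturase Sc5d (-0.26 ± 0.11) and the sterol reductase Tm7sf2 (-0.39 ± 0.20) were not called.

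Both SREBP genes fell in IUA against Sham libraries. Srebf1, whose products drive fatty acid and, in part, sterol synthesis, stood at 5.05, 4.87 and 5.05 FPKM in primed MSC, 3.67, 2.48 and 2.32 in control MSC, 1.91, 1.81 and 1.59 in IUA and 4.12, 4.96 and 6.16 in Sham libraries. The primed MSC values lay within the Sham range, the IUA values were the lowest 3 of the 12, and control MSC values lay between without overlap. In IUA against Sham the change was -1.12 ± 0.16 (adjusted p = 2.56e-04) and -0.80 with median-ratio scaling. Srebf2, whose product chiefly drives sterol synthesis, stood at 4.82, 3.08 and 2.41 FPKM in primed MSC, 2.51, 3.08 and 3.25 in control MSC, 1.08, 2.37 and 0.92 in IUA and 3.06, 2.89 and 2.65 in Sham libraries. All 3 IUA values were below the other 9, IUA library 2 only narrowly, and the IUA against Sham change was -0.70 ± 0.23 (adjusted p = 0.0216), not called with median-ratio scaling (-0.42). Stard4, a cytosolic sterol carrier, fell by 0.77 ± 0.25 on the log2 scale (adjusted p = 0.0197), and was not called with median-ratio scaling (-0.49, adjusted p = 0.12). Insig1, which holds SREBP back, averaged 15.6 ± 1.87 FPKM in IUA and 13.1 ± 3.87 in Sham libraries (SD, n = 3 each) and was not called as deposited (0.27 ± 0.18), while median-ratio scaling gave 0.64 (adjusted p = 0.011).

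Of the 4 tested genes of fatty acid synthesis 3 fell in IUA against Sham libraries, and with median-ratio scaling 2 did. Over all tested genes 45.0 percent fell as deposited and 21.8 percent with that scaling. Elovl6, which lengthens saturated fatty acids, stood at 0.90, 0.85 and 1.09 FPKM in primed MSC, 1.55, 1.04 and 1.28 in control MSC, 1.08, 1.31 and 0.97 in IUA and 4.39, 4.03 and 3.32 in Sham libraries. The Sham values were all above the rest, and its adjusted p of 8.55e-05 (-1.21 ± 0.14, or -0.91 with median-ratio scaling) was the lowest of the 30 genes in this comparison. Scd2, a desaturase that makes monounsaturated fatty acids, stood at 4.93, 5.13 and 6.45 FPKM in primed MSC, 4.66, 4.20 and 5.63 in control MSC, 5.61, 6.52 and 3.43 in IUA and 11.8, 11.4 and 13.5 in Sham libraries. Again only the Sham libraries stood apart, at -1.13 ± 0.19 (adjusted p = 5.27e-04), or -0.76 with median-ratio scaling. The related Scd1 overlapped between IUA and Sham and was not called (-0.36 ± 0.34), and primed MSC library 3 held its highest value, 2.78 FPKM, against 0.53 and 0.52 in the other primed MSC libraries. Acaca, acetyl-CoA carboxylase, fell by 0.75 ± 0.26 on the log2 scale (adjusted p = 0.0265), the groups overlapped, and it was not called with median-ratio scaling (-0.51, adjusted p = 0.12). Fasn, fatty acid synthase, was too low to be tested with the filter: it measured 0.74, 0.59 and 0.94 FPKM in primed MSC, 0.57, 0.29 and 0.56 in control MSC, 0.55, 0.40 and 0.33 in IUA and 1.38, 0.90 and 1.60 in Sham libraries. All IUA values were below all Sham values, and a fit without the filter gave -0.68 ± 0.13 (adjusted p = 0.00304).

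**Figure D3:**
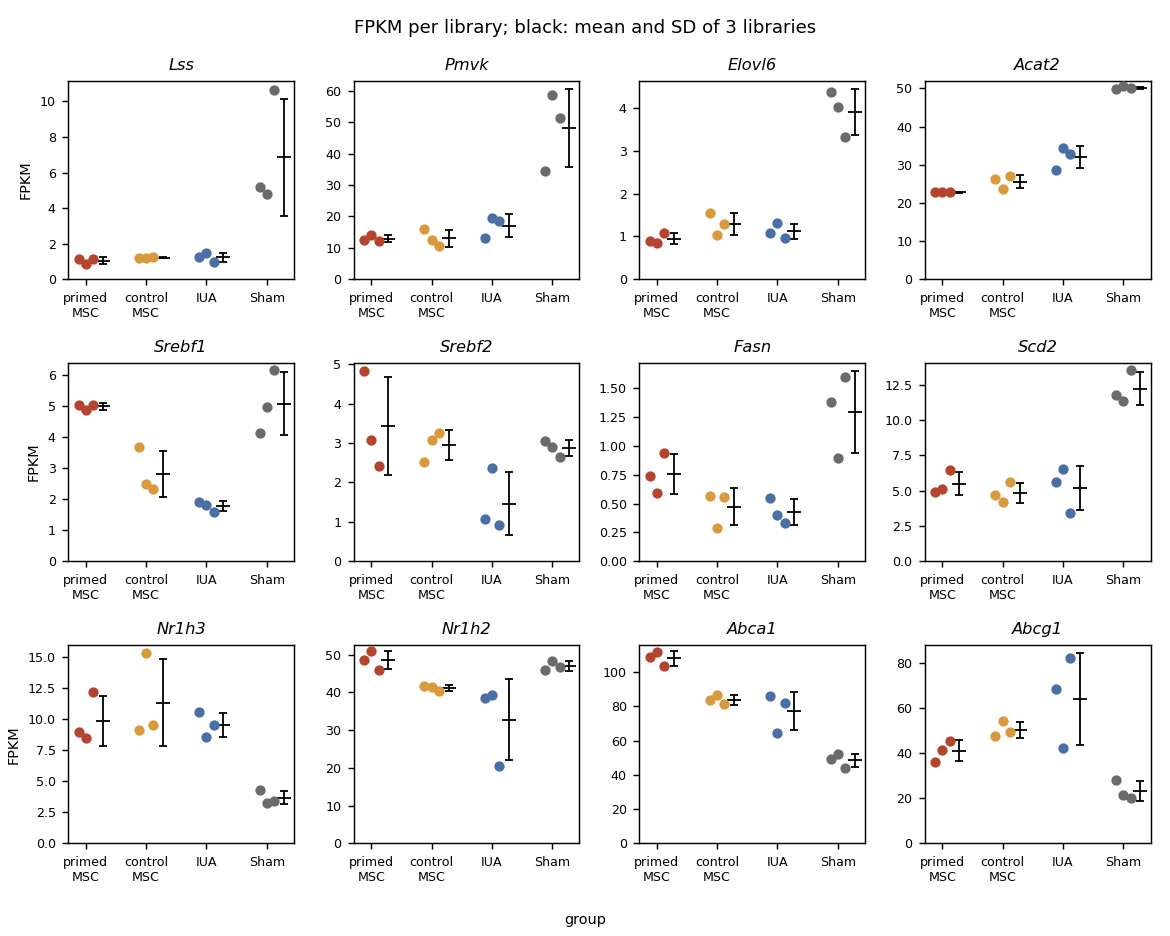
FPKM of 12 of the genes in every library, with 1 panel per gene, 1 point per library and black marks for the mean and SD of 3 libraries, each axis starting at 0. Lss, Pmvk, Elovl6 and Scd2 are low in all 9 libraries of the IUA model, and Abca1, Abcg1 and Nr1h3 are lowest in the Sham libraries. Srebf1 in primed MSC libraries lies within the Sham range of FPKM as deposited.

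The exporters moved the other way. In IUA against Sham libraries 9 of the 10 macrophage markers rose too. Their part in the rises of Abca1, Abcg1 and Nr1h3 was not tested. Abca1, which hands cholesterol to apolipoprotein A-I, stood at 109, 112 and 104 FPKM in primed MSC, 83.5, 86.4 and 81.1 in control MSC, 85.8, 64.5 and 81.7 in IUA and 49.1, 52.0 and 44.0 in Sham libraries. No group overlapped another except control MSC and IUA. In IUA against Sham libraries Abca1 rose by 0.66 ± 0.11 (adjusted p = 5.72e-04), with 1.06 after median-ratio scaling and 0.46 (adjusted p = 0.061, not called) with the epithelium covariate. Abcg1, which passes cholesterol to HDL, stood at 36.3, 41.4 and 45.6 FPKM in primed MSC, 47.7, 54.5 and 49.3 in control MSC, 68.4, 42.2 and 82.4 in IUA and 28.3, 21.4 and 19.9 in Sham libraries. Sham values were the lowest and the IUA values the most spread, and the rise in IUA against Sham was 1.40 ± 0.21 (adjusted p = 2.92e-04), or 1.79 with median-ratio scaling. The ratio of Abca1 to Abcg1 FPKM was 2.27 to 2.99 in primed MSC, 1.58 to 1.75 in control MSC, 0.991 to 1.53 in IUA and 1.74 to 2.43 in Sham libraries.

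The 2 LXR genes differed from each other. Nr1h3, LXR alpha, which is enriched in macrophages and liver, stood at 8.93, 8.49 and 12.2 FPKM in primed MSC, 9.09, 15.3 and 9.51 in control MSC, 10.5, 8.54 and 9.49 in IUA and 4.27, 3.28 and 3.42 in Sham libraries. Every library of the IUA model was above every Sham library, and the IUA against Sham rise was 1.18 ± 0.19 (adjusted p = 4.78e-04), or 1.5 with median-ratio scaling. Nr1h2, the widely expressed LXR beta, stood at 48.7, 50.9 and 46.0 FPKM in primed MSC, 41.7, 41.5 and 40.3 in control MSC, 38.5, 39.4 and 20.4 in IUA and 45.9, 48.4 and 46.8 in Sham libraries. The IUA libraries were lowest, library 3 by far, and the fall in IUA against Sham was -0.57 ± 0.19 (adjusted p = 0.0239). That fall is not called with median-ratio scaling (-0.17) and becomes 0.06 with a correction for GC content. The Nr1h3 to Nr1h2 ratio was 0.167 to 0.264 in primed MSC, 0.218 to 0.369 in control MSC, 0.217 to 0.465 in IUA and 0.0677 to 0.0931 in Sham libraries.

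The promoters of 4 members are printed because they hold the sequence motifs by which LXR and SREBP are known to act. RefSeq promoter windows of 300 bases (build GRCm38.p6, from 250 before to 50 after each start) matched 24 of the 31 genes. Abcg1, Fdft1, Fdps, Scd1, Scd2, Sqle and Stard4 had no window and were not searched. An LXR-type repeat, spelled GGTNA, any 5 bases and GGTCA and sought on both strands, was in 0.207 percent of all 32851 windows and in windows of Abca1, Fasn and Srebf1. A sterol-element motif, TCACNCCAC on both strands, was in 1.24 percent of all windows. Among the 24 matched members it was in that of Hmgcs1 alone, 3.33 percent of their windows. A match is a description of letters, not a shown binding site. Each run below is the 250 bases before the start, on the gene's strand, with the motif in capitals. It lies 67 bases before the start in Abca1 (chr4:53159896-53160145, minus strand), 225 in Fasn (chr11:120824548-120824797, minus strand), 182 in Srebf1 (chr11:60210472-60210721, minus strand) and 137 in Hmgcs1 (chr13:119690101-119690350, plus strand). The 3 repeats are read on the strand opposite to the gene.
Abca1: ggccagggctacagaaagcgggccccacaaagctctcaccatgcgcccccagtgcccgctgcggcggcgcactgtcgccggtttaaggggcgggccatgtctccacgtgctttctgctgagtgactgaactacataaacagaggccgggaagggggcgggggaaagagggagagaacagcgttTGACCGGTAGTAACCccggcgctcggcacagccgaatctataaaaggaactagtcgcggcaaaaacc
Fasn: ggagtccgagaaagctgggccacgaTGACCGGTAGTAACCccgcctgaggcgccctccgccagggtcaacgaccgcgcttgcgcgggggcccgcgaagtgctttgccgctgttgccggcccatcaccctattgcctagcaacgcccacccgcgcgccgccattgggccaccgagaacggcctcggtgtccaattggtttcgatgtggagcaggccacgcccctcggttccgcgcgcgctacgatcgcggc
Srebf1: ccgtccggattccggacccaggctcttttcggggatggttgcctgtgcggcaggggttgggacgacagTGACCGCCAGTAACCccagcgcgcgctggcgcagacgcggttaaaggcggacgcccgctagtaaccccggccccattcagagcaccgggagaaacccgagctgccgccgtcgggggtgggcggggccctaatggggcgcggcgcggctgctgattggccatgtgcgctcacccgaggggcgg
Hmgcs1: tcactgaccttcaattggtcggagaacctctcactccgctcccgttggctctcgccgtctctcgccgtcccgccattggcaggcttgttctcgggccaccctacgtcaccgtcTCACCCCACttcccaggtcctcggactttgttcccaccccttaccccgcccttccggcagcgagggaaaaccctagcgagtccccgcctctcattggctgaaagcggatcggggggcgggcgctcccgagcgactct

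The 3 genes with the repeat differed in direction in IUA against Sham libraries, at 0.66 for Abca1, -1.12 for Srebf1 and -0.68 for Fasn in the fit without the filter. In primed MSC against IUA libraries Abca1 and Srebf1 rose, while Fasn measured 0.30 and was not called. The Srebf1 match is in 1 of its 3 windows. The CCAAT box, searched on both strands, was in 18 of the 24 genes and in 63.3 percent of their windows, against 37.4 percent of all windows. The E-box CACGTG was in 5 of the 24 genes (Abca1, Dhcr7, Hsd17b7, Insig1 and Sc5d) and in 16.7 percent of their windows, against 7.15 percent of all windows.

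In primed MSC against IUA libraries 5 of the 30 genes rose and 1 fell, where 12.2 percent of all tested genes rose and 6.97 percent fell. The 5 were both SREBP genes, Dhcr7, Abca1 and Nr1h2, and the 1 was Acat2. The median log2 change was 0.03 for the 30 genes and -0.03 for all genes. Of the 10 macrophage markers 4 rose and none fell (median 0.19). Falls were called for 2 of 8 tested stromal, 2 of 6 tested neutrophil and 1 of 7 endothelial markers. The tested neutrophil markers nevertheless had a median log2 change of 0.33. Sums over the neutrophil list, mostly Ltf, overlapped, at 306 to 1338 FPKM in primed MSC and 313 to 399 in IUA libraries. None of the 12 tested epithelium markers was called. The part of these cells in the members' changes was not tested. Srebf1 rose by 1.11 ± 0.16 (adjusted p = 0.00149), to 4.99 ± 0.104 FPKM in primed MSC, against 1.77 ± 0.164 in IUA libraries (SD, n = 3 each). Abca1 rose by 0.49 ± 0.11 (adjusted p = 0.0123), to 108 ± 4.23 in primed MSC, against 77.3 ± 11.3 in IUA libraries (SD, n = 3 each). Acat2 fell by 0.47 ± 0.09 on the log2 scale (adjusted p = 0.00687), to 22.8 ± 0.124 in primed MSC, against 32.0 ± 2.90 in IUA libraries (SD, n = 3 each). These 3 calls held under every alternative run.

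Srebf2 rose by 0.86 ± 0.23 (adjusted p = 0.0229), Dhcr7 by 0.85 ± 0.23 (adjusted p = 0.0249) and Nr1h2 by 0.61 ± 0.19 (adjusted p = 0.0428). Each of the 3 lost its call when primed MSC library 1 or 2 was left out, and the count of changed genes was then 3. Over all tested genes 7.43 percent rose and 2.54 percent fell without library 1. Without library 2 the shares were 7.78 and 3.05 percent. Without IUA library 3, Srebf2 measured 0.71 (adjusted p = 0.089) and Dhcr7 0.69 (adjusted p = 0.096), both uncalled, while Nr1h2 measured 0.31 and stayed called. Without IUA library 1 Srebf2 also lost its call, as Dhcr7 did without primed MSC library 3. Nr1h2 lost it in each of the fits without a primed MSC, control MSC or Sham library.

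GC content moved with this result. The Spearman correlation across 11601 genes between GC content and a library's deviation from the mean of all libraries was 0.146 to 0.220 in primed MSC libraries. It was -0.150, -0.183 and -0.485 in IUA libraries 1, 2 and 3. The transcripts of Srebf1, Srebf2 and Nr1h2 hold 58.4, 57.9 and 60.6 percent GC, against a median of 49.4 over tested genes, while Abca1 holds 47.5 and Acat2 49.6. With a GC correction, chosen after seeing the data, Srebf1 measured 0.74 (adjusted p = 0.0093), Abca1 0.55, Acat2 -0.45 and Dhcr7 0.74, all still called. Srebf2 measured 0.51 (adjusted p = 0.13) and Nr1h2 0.17 (adjusted p = 0.39) in that fit and were not called. With IUA library 3 left out as well, Nr1h2 came to 0.01 and Srebf1 to 0.82 (adjusted p = 0.015). With the epithelium covariate all 6 calls held.

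**Figure D4:**
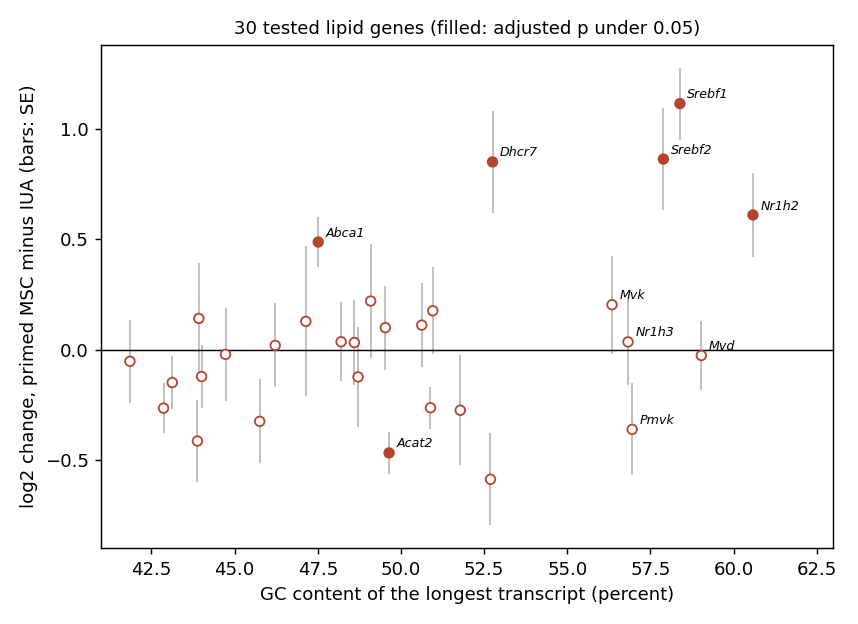
Log2 change of the 30 tested genes, primed MSC minus IUA, against the GC content of each gene's longest transcript in percent. Bars are the SE and filled circles have an adjusted p under 0.05. Srebf1, Srebf2 and Nr1h2 lie at the GC-rich end, as do Mvk, Mvd, Pmvk and Nr1h3, which were not called (Pearson 0.435 and Spearman 0.337 across the 30 genes, given as a description).

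Of the enzymes that fell in IUA against Sham libraries, Dhcr7 alone was called higher with primed MSC, and Acat2 was lower still. Among the 7 mevalonate genes 1 changed, Acat2, further down, and among the 11 genes from squalene to cholesterol only Dhcr7 did. Of all tested genes 12.2 percent rose and 6.97 percent fell in this comparison. Lss measured -0.12 ± 0.23, Pmvk -0.36 ± 0.21, Elovl6 -0.12 ± 0.14 and Scd2 0.10 ± 0.19 in primed MSC against IUA, none called. Fasn was higher in all 3 primed MSC than in all 3 IUA libraries, with 0.30 ± 0.13 (adjusted p = 0.198) in the fit without the filter. Abcg1 measured -0.59 ± 0.21 (adjusted p = 0.0668) and was not called, so the 2 exporters had changes of opposite sign.

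In control MSC against IUA libraries none of the 30 genes passed limma's threshold, where 0.724 percent of all tested genes rose and 0.129 percent fell. At an unadjusted p under 0.05 there were 5 of the 30, 3 higher and 2 lower, against 18.8 percent of all genes. Srebf2 measured 0.73 ± 0.23 (adjusted p = 0.134), Dhcr7 0.61 ± 0.23 (adjusted p = 0.191), Srebf1 0.45 ± 0.16 (adjusted p = 0.178) and Acat2 -0.31 ± 0.09 (adjusted p = 0.125). For Srebf1 and Srebf2, and also for Mvk and Nr1h2, all control MSC values were above all IUA values, and for Acat2 all were below. These were 4 genes higher and 1 lower of the 30. The share of all tested genes that separate in this way is not given, so these counts are a description. Both treated groups are set against the same IUA libraries, so the values of the 2 comparisons are not independent.

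**Figure D5:**
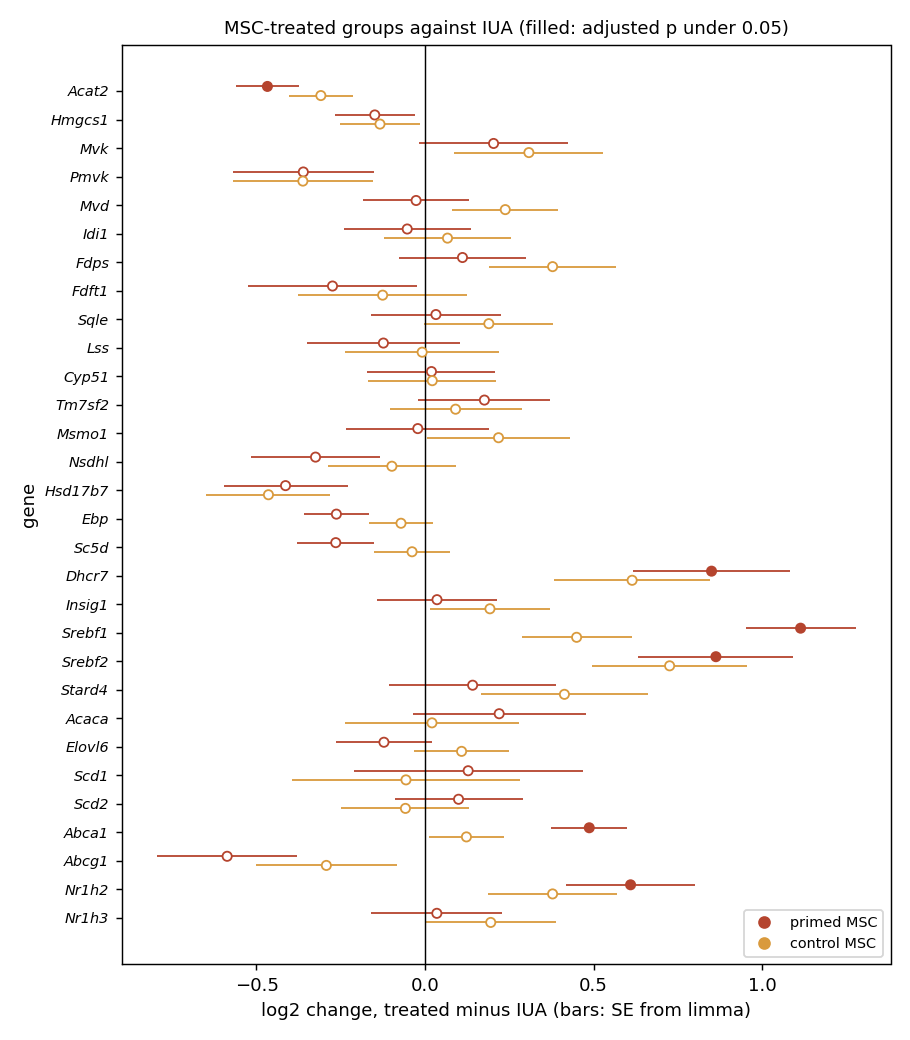
Log2 change of the 30 tested genes in primed MSC (red) and control MSC (yellow) libraries, each minus IUA. Bars are the SE from limma and filled circles have an adjusted p under 0.05. The filled circles are Srebf1, Srebf2, Dhcr7, Nr1h2, Abca1 and Acat2 in primed MSC, and no control MSC circle is filled.

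Between primed MSC and control MSC libraries none of the 30 genes was called by limma, where 0.0776 percent of all tested genes rose and 0.0345 percent fell. At an unadjusted p under 0.05 there were 2, both higher in primed MSC, against 12.9 percent of all genes. Srebf1 averaged 4.99 ± 0.104 FPKM in primed MSC and 2.82 ± 0.738 in control MSC libraries, at a difference of 0.66 ± 0.16 (adjusted p = 0.139). Abca1 averaged 108 ± 4.23 in primed MSC and 83.6 ± 2.66 in control MSC libraries (SD, n = 3 each), at 0.36 ± 0.11 (adjusted p = 0.228), and a fit to these 6 libraries alone called it (adjusted p = 0.0472). Both had every primed MSC value above every control MSC value. Such separation was not particular to them: of the 30 genes 3 lay wholly higher and 6 wholly lower in primed MSC libraries. The share of all tested genes that separate in this way is not given, so these counts are a description.

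Against Sham, 3 of the 30 genes were higher and 16 lower in primed MSC libraries, where 14.5 percent of all tested genes rose and 45.0 percent fell. In control MSC libraries 5 were higher and 16 lower, where 14.1 percent rose and 42.7 percent fell. With median-ratio scaling the splits were 5 higher and 10 lower in primed MSC, and 6 higher and 9 lower in control MSC. In those fits 28.3 percent of all tested genes rose and 24.7 percent fell in primed MSC. In control MSC 26.6 percent rose and 23.8 percent fell. Abca1 and Nr1h3 rose, and Acat2, Elovl6, Fdft1, Idi1, Lss, Pmvk and Scd2 fell, in both groups under every alternative in which they were tested. Abca1 was 1.14 ± 0.11 in primed MSC and 0.78 ± 0.11 in control MSC against Sham on the log2 scale. Srebf1 fell by 0.67 ± 0.16 on the log2 scale in control MSC against Sham (adjusted p = 0.00407, and not called with median-ratio scaling). In primed MSC against Sham it measured -0.01 ± 0.16 as deposited (adjusted p = 0.970), which does not show equal levels. Median-ratio scaling divides Sham values by 1.23 to 1.27 and primed MSC values by 0.894 to 0.993, and so moves this value upward.

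Further genes of the pathway were taken from 6 lists, with up to 4 named in each by the smallest F test p. All their IUA against Sham counts as deposited stand against the 45.0 percent of all tested genes that fell and the 11.1 percent that rose. With median-ratio scaling 21.8 percent fell and 23.2 percent rose, and with the epithelium covariate 12.2 percent fell and 4.24 percent rose. In primed MSC against IUA libraries 12.2 percent of all tested genes rose and 6.97 percent fell. With the GC correction 9.99 percent rose and 7.82 percent fell there, and with median-ratio scaling 13.3 percent rose and 7.6 percent fell. In control MSC against IUA libraries 0.724 percent rose and 0.129 percent fell. In IUA against Sham libraries 8 of 12 other genes of sterol synthesis fell and none rose (median -0.57). Acss2, which makes cytosolic acetyl-CoA from acetate, averaged 3.61 FPKM in IUA and 11.5 in Sham libraries (-1.43 ± 0.19), Acat1, the mitochondrial thiolase, changed by -0.73 ± 0.13, and Cyb5r3, which feeds electrons to the oxidases, by -0.78 ± 0.13. With median-ratio scaling 5 of the 12 fell and 2 rose, and with the epithelium covariate 3 fell and none rose. In primed MSC against IUA libraries 1 of the 12 rose, Por, the reductase that feeds cytochrome P450 enzymes, at 203 FPKM in primed MSC and 107 in IUA libraries (0.93 ± 0.13, adjusted p = 0.0013).

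Of 16 tested genes of SREBP control and sterol uptake, 9 fell and 3 rose in IUA against Sham libraries (median -0.56), with median-ratio scaling 6 fell and 4 rose, and with the epithelium covariate 4 fell and 1 rose. Scap, the escort of SREBP, averaged 0.897 FPKM in IUA and 3.30 in Sham libraries (-1.18 ± 0.16), and Mbtps1, the protease that first cuts SREBP, 6.55 in IUA and 16.9 in Sham libraries (-1.27 ± 0.18). Pgrmc1, a haem-binding membrane protein, changed by -1.18 ± 0.16. Npc2, which carries cholesterol out of lysosomes, rose to 210.3 FPKM in IUA, against 97.0 in Sham libraries (1.11 ± 0.11). With primed MSC, against IUA, 6 of the 16 rose and none fell (median 0.38, against -0.03 for all genes), and 6 rose with the GC correction as well. Scap rose to 2.97 FPKM in primed MSC, against 0.897 in IUA libraries (1.07 ± 0.16, adjusted p = 0.00149). Others that rose, named after their values were seen, were Rnf145 (1.01 ± 0.18), Stard3, a sterol transfer protein of endosomes (0.83 ± 0.20), and Stard5 (0.42 ± 0.11).

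Of 21 other genes of fatty acid and triglyceride synthesis 16 fell and 1 rose in IUA against Sham libraries (median -0.65), 8 fell and 2 rose with median-ratio scaling, and 4 fell and none rose with the epithelium covariate. Thrsp, a lipogenic factor, averaged 2.07 FPKM in IUA and 9.36 in Sham libraries (-1.73 ± 0.33), Mid1ip1, its relative, changed by -1.11 ± 0.13 and Elovl5, an elongase of polyunsaturated fatty acids, by -1.10 ± 0.16. Acsl5, an acyl-CoA synthetase, was the 1 that rose (0.27 ± 0.10), and it rose again in primed MSC against IUA libraries, to 75.1 FPKM in primed MSC, against 44.8 in IUA libraries (0.73 ± 0.10, adjusted p = 0.00131). Dgat1, which forms triglyceride, and Hsd17b12, named after their values were seen, rose as well in that comparison (1.37 ± 0.20 and 0.52 ± 0.10). In control MSC against IUA libraries 1 of the 21 rose, Acsl5 (0.54 ± 0.10, adjusted p = 0.0420), and none was called with median-ratio scaling or with the GC correction.

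Of 13 LXR targets and partners 5 rose and 2 fell in IUA against Sham libraries (median 0.34), 8 rose and 2 fell with median-ratio scaling, and 3 rose and 1 fell with the epithelium covariate. Apoc2, the apolipoprotein that activates lipoprotein lipase, rose to 141 FPKM in IUA, against 9.99 in Sham libraries (3.69 ± 0.13, adjusted p = 1.86e-08). Smpdl3a, a phosphodiesterase, rose to 181 FPKM in IUA, against 64.5 in Sham libraries (1.48 ± 0.10), and Apoc1, an apolipoprotein, by 1.28 ± 0.19. Lpcat3, which remodels phospholipids, fell to 33.8 FPKM in IUA, against 78.8 in Sham libraries (-1.22 ± 0.19), so genes of this list moved in both directions. With primed MSC, against IUA, 3 of the 13 rose. They were Pltp, a phospholipid transfer protein (0.70 ± 0.15), Arl4c, a small GTPase (0.66 ± 0.16), and Rxrb, a partner of LXR (0.65 ± 0.20), named after their values were seen. With the GC correction 1 of the 13 rose.

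Of 14 genes of sterol uptake, storage and export 7 rose and 1 fell in IUA against Sham libraries (median 0.50), 10 rose and 1 fell with median-ratio scaling, and 4 rose and 1 fell with the epithelium covariate. Msr1, a scavenger receptor for modified lipoproteins, rose to 178 FPKM in IUA, against 43.1 in Sham libraries (2.04 ± 0.18). Plin2, the coat protein of lipid droplets, rose to 1142 FPKM in IUA, against 589 in Sham libraries (0.94 ± 0.14), Fabp5, a fatty acid carrier, by 1.77 ± 0.23, and Lipa, the lysosomal lipase that frees cholesterol, by 1.03 ± 0.14. Summed macrophage markers moved the same way in these libraries, and their part in these rises was not tested. With primed MSC, against IUA, the endocytic receptor Lrp1 (1.13 ± 0.21) and the HDL receptor Scarb1 (0.84 ± 0.22) rose and the fatty acid carrier Fabp4 fell (-1.54 ± 0.30), all named after their values were seen. Of 18 genes of fatty acid oxidation 11 fell and none rose in IUA against Sham libraries (median -0.41, against -0.35 over all genes), led by Ppargc1a, a coactivator of mitochondrial genes (-2.03 ± 0.27), the oxidation enzymes Acadvl (-0.92 ± 0.13) and Eci1 (-0.91 ± 0.16), and the electron carrier subunit Etfb (-0.61 ± 0.10). With median-ratio scaling 3 of the 18 fell and 3 rose, and with the epithelium covariate 2 fell and none rose. With primed MSC, against IUA, 1 of the 18 fell, Etfa (-0.46 ± 0.10), named after its value was seen, and 4 fell with median-ratio scaling.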

How the data were processed

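The deposited table holds FPKM that the authors computed per gene and library, rounded to 2 decimals. Per the submitters' processing notes, the build was mm10 and the tools included DESeq2, RSEM, StringTie, HISAT2 and fastp, with no version named. No strand setting is given in the sources used here. Values were analysed as log2(FPKM + 1), a pseudocount of 1, in R 4.3.3 with limma 3.58.1. Genes at FPKM 1 or more in at least 3 libraries were kept. All 12 libraries entered 1 model, with a mean for each group and a variance trend, and 6 two-sided comparisons were drawn from it, with Benjamini-Hochberg adjustment over all 11604 tested genes. With 3 libraries a group, exact permutation could reach a two-sided p of 0.1 at best, so none is reported. The fit was tested on simulated data.

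The members and lists were chosen with earlier results of these data known. All members are named, with values in every library where a member was called among the IUA groups or changed by a log2 of at least 1 in IUA against Sham, and up to 4 genes of each other list by the smallest F test p. Alternatives were median-ratio scaling, quantile normalization, TPM, other pseudocounts (0.1 and 0.5), a stricter filter (FPKM 5) or none, the compared groups alone, a replicate block, an epithelium covariate, a threshold of adjusted p under 0.1 and leaving out each library. A lowess correction for GC content, with and without IUA library 3, was chosen after seeing the data. GC content, gene positions and shared exons came from the GENCODE annotation of the same build. Nothing in the labels says that equal replicate numbers mark a shared animal or day. Some genes of the other lists are not reported here.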

Additional observations from a re-analysis of the deposited data

How the results depend on the processing

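Over 24 alternatives the 69 called member changes gave 1638 values, of which 1396 kept direction and call, 232 kept direction and lost the call, and 10 changed sign. Signs turned for Hmgcs1 in IUA against Sham (0.0758 with median-ratio scaling, 0.0520 with quantile normalization, 0.0441 with the GC correction without IUA library 3), Nr1h2 in IUA against Sham (0.0628 with the GC correction, 0.218 without IUA library 3 as well), Ebp in primed MSC against Sham (0.161 with median-ratio scaling, 0.149 with the GC correction, with and without IUA library 3) and Sc5d in control MSC against Sham (0.0706 with median-ratio scaling, 0.0128 with quantile normalization). With the epithelium covariate the counts of changed members were 9 in IUA against Sham, 9 in control MSC against Sham, 10 in primed MSC against Sham and 11 by the F test, against 23, 21, 19 and 22. Of all tested genes 4.24 percent then rose and 12.2 percent fell in IUA against Sham, against 11.1 and 45.0 percent as deposited. In control MSC against Sham 5.52 percent rose and 14.5 percent fell, against 14.1 and 42.7 percent. In primed MSC against Sham 6.89 percent rose and 19.4 percent fell, against 14.5 and 45.0 percent. In primed MSC against IUA the count of 6 became 3 without the filter and 3 with the GC correction without IUA library 3, and 1 member was called in primed MSC against control MSC from these groups alone, against 0. The cause was not tested. Without the filter 6.49 percent of all genes rose and 3.12 percent fell in primed MSC against IUA. With that GC correction 6.25 percent rose and 3.47 percent fell. In primed MSC against control MSC from these groups alone 1.29 percent rose and 0.491 percent fell. At an adjusted p under 0.1 the counts were 25 in IUA against Sham and 8 in primed MSC against IUA. At that threshold 13.1 percent of all tested genes rose and 50.8 percent fell in IUA against Sham. In primed MSC against IUA 16.2 percent rose and 12.3 percent fell. Leaving out 1 library gave 17 to 22 members in IUA against Sham, 3 to 7 in primed MSC against IUA, 16 to 22 in control MSC against Sham, 17 to 20 in primed MSC against Sham, 18 to 24 by the F test and 0 in the other 2 comparisons. With the replicate number as a block the counts were 21 in IUA against Sham, 6 in primed MSC against IUA, 0 in control MSC against IUA, 0 in primed against control MSC, 20 and 17 in control and primed MSC against Sham, and 21 by the F test. With the block 10.8 percent of all tested genes rose and 43.5 percent fell in IUA against Sham. The shares were 10.9 and 5.76 percent in primed MSC against IUA. They were 13.6 and 42 percent in control MSC and 14.2 and 44.1 percent in primed MSC, each against Sham. Same-numbered libraries correlated at -0.293 to 0.288 over 18 pairs and 5 of 12 libraries matched their own number best, so the numbers were not taken as pairs. Depth is unknown, and low members such as Fasn, Scd1 and Acaca rest on values near 1 FPKM. So do Lss (0.83 to 1.49 FPKM) and Elovl6 (0.85 to 1.55 FPKM) in the 9 libraries of the IUA model.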
